A study of Mus musculus with 30 samples.

Results

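Aminoacyl-tRNA synthetases were followed across 3 genotypes in the villi and the crypts of the mouse small intestine. The members were the genes whose symbol has the form of a synthetase (1 amino acid letter followed by ars, with or without a digit), together with Eprs, Farsa and Farsb. They came to 35 of the 18194 genes with a probe set of their own, 19 cytosolic and 16 mitochondrial, the latter carrying the suffix 2. Methionyl-tRNA synthetase of the cytosol is listed as Mars1. Each member was read from its probe set of highest mean over the 30 arrays, and 23 of the 35 had several.

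Mice were 2 months old, and tissue was taken 5 days after deletion by Ah-cre, an inducible Cre recombinase active in the intestine. Groups were control, Rb KO, in which Rb1 was deleted, and DKO, in which Rb1 and Myc were both deleted. Villi and crypts of each genotype gave 5 arrays each, 30 in all. The labels name neither a strain nor the inducing agent nor the controls' alleles, and nothing in them states that each replicate was its own animal, so the p-values measure the spread between these samples, which may be technical. The arrays were made from whole villus or crypt preparations, where fewer cells of a type and less RNA per cell cannot be told apart.

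Each synthetase joins 1 amino acid to its tRNAs, at the cost of ATP, and so supplies the ribosome with charged tRNA. The cytosol and the mitochondrion mostly use separate genes for this, while Gars (glycine) and Kars (lysine) serve both. In the cytosol a set of synthetases is bound into the multisynthetase complex, of which 7 were measured (Eprs, Iars, Kars, Lars, Mars1, Qars and Rars), and the others work outside it. The enzymes fall into structural classes I and II, with 18 and 16 members here, and Eprs, which charges glutamate and proline, joins a domain of each. Crypts hold the dividing cells of the intestinal epithelium and villi its differentiated absorptive cells. Several cytosolic synthetase genes are known targets of ATF4, the transcription factor of the amino acid response, and Myc is known for driving genes of protein synthesis.

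Values are log2 expression values, differences are log2 with their standard error (SE), and group levels are means ± SD over 5 arrays. A gene was said to rise or fall where the adjusted p of limma, over the 14548 genes tested, was below 0.05. Of the 35 members, 34 were tested. Mars2, with a mean of 5.11 against a filter at 5.33, was not. The villus and crypt arrays were treated as normalized separately, and no level was compared between the tissues. The number of arrays limits the precision.

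The targeted genes and the tissue markers were read first. Rb1 was at 9.73 ± 0.45 (SD, n = 5) in control villi, 8.27 ± 0.06 (n = 5) in Rb KO and 8.47 ± 0.16 (n = 5) in DKO villi, and no mutant array reached the controls in either tissue. Myc stood at 10.51 ± 0.23 (n = 5) in control crypts, 10.48 ± 0.41 (n = 5) in Rb KO and 8.88 ± 0.13 (n = 5) in DKO crypts. In villi it was at 7.06 ± 0.60 (n = 5), 7.28 ± 0.21 (n = 5) and 6.76 ± 0.17 (n = 5), and the control range, from 6.38 to 7.89, took in every Rb KO and DKO array, while all DKO arrays were below all Rb KO arrays. The mean of 9 enterocyte markers lay between 14.25 and 14.45 in all villus arrays, and that of 9 crypt markers between 12.10 and 12.78 in all crypt arrays. Each tissue also gave signal for the other's markers. The enterocyte mean ran from 12.80 to 13.85 over the crypt arrays, and the crypt marker mean from 7.99 to 10.30 over the villus arrays.

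In Rb KO against control villi, the share of synthetases that rose was near that of all genes. Those that rose were cytosolic and outside the multisynthetase complex. Aars (alanine), Gars (glycine), Yars (tyrosine), Hars (histidine), Tars (threonine) and Vars (valine) rose, by 0.42 to 0.68 on the log2 scale, which is 1.34- to 1.60-fold. Hars2, the mitochondrial histidyl-tRNA synthetase, fell. The 6 genes that rose are 17.6% of the 34 members tested, near the background of 14.7% of all genes tested that rose in the same comparison. All 6 are among the 12 cytosolic synthetases outside the multisynthetase complex. By limma 0 of the 7 complex members rose (0 at an unadjusted p under 0.05), as did 0 of the 15 mitochondrial members tested (2 at an unadjusted p under 0.05). At a background of 14.7%, few rises are to be looked for among 7 or 15 members. The classes were compared with earlier results of these data known, and no test was made of that split.

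The starts of these genes are shown because 4 of the 6 have a promoter sequence in RefSeq (build GRCm38.p6, 250 bases before the transcription start and 50 after it), and all 4 hold the core of the amino acid response element bound by ATF4. The letters searched were TGATGNAA, on both strands. Of the 26 members with a promoter sequence 5 hold it, against 3.97% of all 32851 promoters. The E-box CACGTG, searched in the same way, is in 2 of the 4, and the E2F-type letters TTTCCCGC and TTTGGCGC are in none of the 4. Among the 26 members TTTCCCGC is in Rars2 and Sars2 (1.07% of all promoters) and TTTGGCGC in Fars2 (0.514%). Capitals mark the match, which is a description of letters and not a measured binding site. Sequences run 5′ to 3′ on the gene's strand, and a position is that of the match's first base, with -1 the base before the start and 1 the first base of the transcript. Aars holds the motif a second time at position 10.
Aars, chr8:111033708-111033759, plus strand, position -112: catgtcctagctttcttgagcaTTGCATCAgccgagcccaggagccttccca
Gars, chr6:55037949-55038000, plus strand, position -30: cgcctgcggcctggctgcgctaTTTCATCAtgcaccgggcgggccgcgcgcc
Tars, chr15:11399659-11399695, minus strand, position -15: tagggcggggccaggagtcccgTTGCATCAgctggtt
Yars, chr4:129189895-129189924, plus strand, position 4: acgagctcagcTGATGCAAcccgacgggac
Iars, chr13:49682126-49682155, plus strand, position 8: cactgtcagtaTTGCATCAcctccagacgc
The fifth member with the motif was Iars, the isoleucyl-tRNA synthetase of the complex, whose difference in Rb KO villi was 0.20 ± 0.23 (adjusted p = 0.561).

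Aars had the smallest adjusted p of the members in villi. Its control arrays read 9.44, 9.48, 9.40, 9.56 and 9.56, and its Rb KO arrays 9.85, 9.80, 9.94, 10.42 and 10.04. Every Rb KO array was above every control array, the fourth standing highest, and the difference was 0.52 ± 0.10 (adjusted p = 0.00127). Gars read 9.98, 9.59, 9.99, 10.21 and 9.82 in controls and 10.41, 10.32, 10.28, 10.65 and 10.47 in Rb KO villi. Its groups were also apart, with a difference of 0.51 ± 0.11 (adjusted p = 0.00202). Vars had the largest difference of the 34 members tested, with controls spread over more than 1 unit, at 8.77, 8.22, 8.49, 8.73 and 7.65 against 8.87, 9.01, 8.94, 9.34 and 9.10 in Rb KO villi. Its groups did not overlap, and the difference was 0.68 ± 0.20 (adjusted p = 0.0186). These 3 were the members whose groups stood apart upward, as 9.88% of all genes tested did.

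The other 3 genes that rose had groups that overlapped at their edges. Yars read 8.44, 7.89, 8.37, 8.61 and 8.16 in controls and 8.88, 8.59, 8.73, 8.90 and 9.04 in Rb KO villi, up by 0.53 ± 0.12 (adjusted p = 0.00274). Hars read 9.14, 9.01, 9.20, 9.31 and 9.00 against 9.74, 9.29, 9.39, 9.79 and 9.56, up by 0.42 ± 0.10 (adjusted p = 0.00555). Tars read 9.47, 8.77, 9.34, 9.44 and 9.10 against 9.85, 9.44, 9.60, 9.78 and 9.65, up by 0.44 ± 0.12 (adjusted p = 0.0127). In each of the 3, a single Rb KO array lay within the control range. Of the 6, Aars and Hars were read by 2 probe sets each, which both rose when tested alone, and the other 4 by 1.

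The remaining cytosolic synthetases outside the complex had positive differences that did not pass. Farsb and Farsa, the subunits of the phenylalanyl-tRNA synthetase, differed by 0.53 ± 0.20 (adjusted p = 0.0578) and 0.27 ± 0.15 (adjusted p = 0.192). Nars (asparagine) differed by 0.31 ± 0.20, Cars (cysteine) by 0.15 ± 0.10, Wars (tryptophan) by 0.10 ± 0.09 and Sars (serine) by 0.03 ± 0.11, with adjusted p from 0.259 to 0.872. In the complex, 6 of 7 members had positive differences of 0.13 to 0.26, none past the threshold, and Qars (glutamine) was lower by 0.19 ± 0.07 (adjusted p = 0.0546). The median difference was 0.43 over the cytosolic members outside the complex, 0.18 over the complex and 0.04 over the mitochondrial members measured, beside -0.02 over all genes tested. Over class I and class II members the medians were 0.11 and 0.15.

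Among mitochondrial synthetases, Hars2 fell by 0.23 ± 0.07 (adjusted p = 0.0169) on the log2 scale, as 15.8% of all genes tested fell. Its control arrays read 8.41, 8.34, 8.46, 8.57 and 8.43, and its Rb KO arrays 8.28, 8.27, 8.06, 8.14 and 8.28. All 5 Rb KO arrays were below all controls, as in 8.81% of genes. Its second probe set gave -0.10 ± 0.09 and did not pass alone (adjusted p = 0.425), and with the mean of both, a reading of RNA quality from the GAPDH probe sets as a covariate, or control replicates 1 and 4 left out, Hars2 was not called. Hars and Hars2, the cytosolic and mitochondrial enzymes for the same amino acid, had differences of opposite sign, that of Hars2 within these limits. Yars2 (tyrosine) had the largest mitochondrial difference, 0.67 ± 0.27, with controls spread from 5.78 to 7.41 and an adjusted p of 0.0751. The other 13 mitochondrial members tested differed by -0.28 to 0.16.

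**Figure D1:**
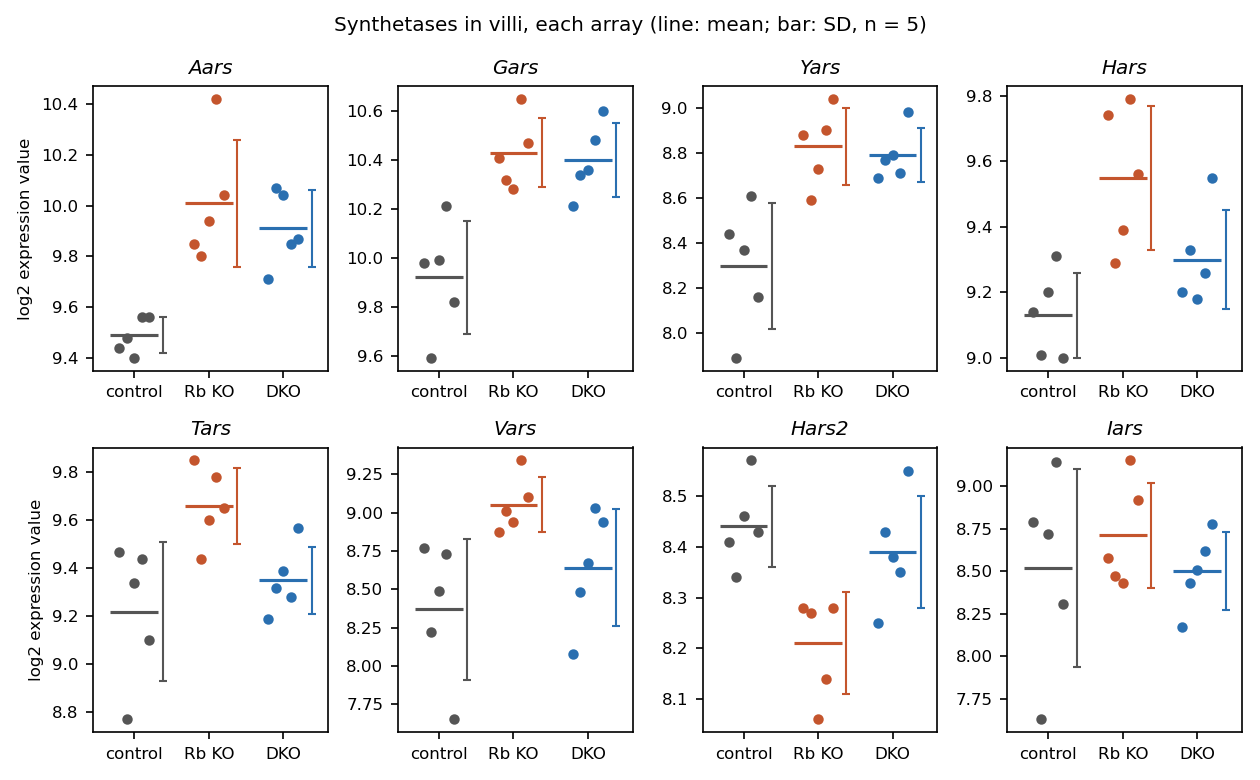
Log2 expression value of 8 synthetases in each of the 15 villus arrays, by genotype (points: arrays; line: mean; bar: SD, n = 5). Aars, Gars and Vars were higher in every Rb KO array than in every control array, Hars2 was lower, and Iars, a complex member, overlapped.

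Signs of cell makeup were read beside these values. The crypt marker score (the mean of 9 markers of stem and Paneth cells minus the mean of the tissue) ran from -1.33 to 0.925 in control villi. Rb KO villi spanned -0.509 to 0.781, and the means differed by 0.451 (exact permutation p = 0.365). None of the 9 crypt markers passed the test in that comparison. The control arrays with the lowest scores, replicates 2 and 5, also had the lowest cytosolic means, -0.31 and -0.11 against the control mean. Control replicate 4, with the highest control score, stood at 0.27. Within every genotype the array of the highest cytosolic mean was among those with the 2 highest crypt scores. Over the 15 villus arrays, the Pearson r with the crypt score was 0.78 for the cytosolic mean and 0.71 for the mitochondrial mean.

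**Figure D2:**
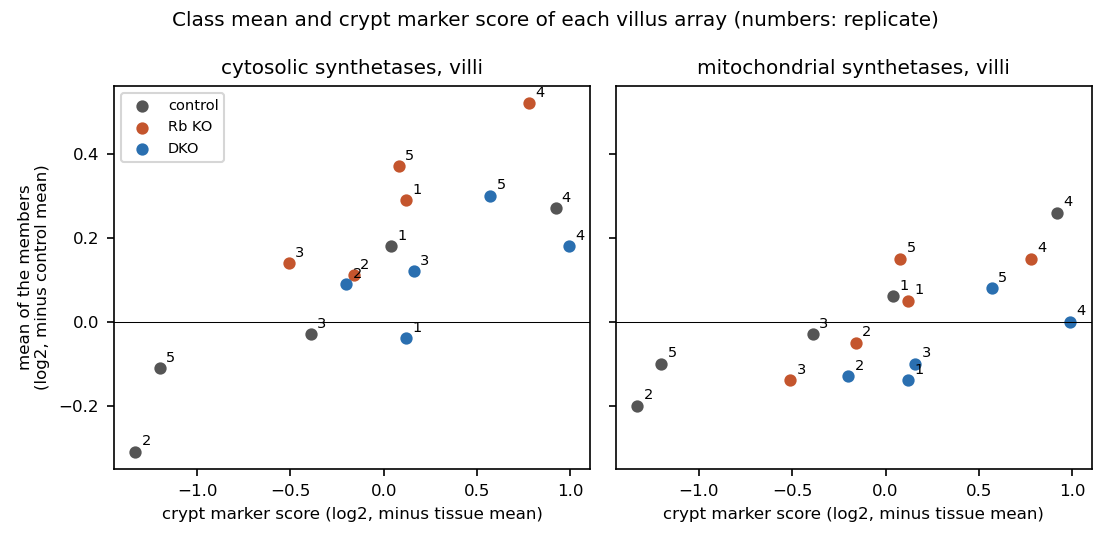
Mean of the cytosolic (left) and mitochondrial (right) synthetases of each villus array, in log2 minus the control mean, against its crypt marker score, with replicate numbers beside the points. Cytosolic means rise with the score in the controls, from -0.31 to 0.27, and Rb KO replicate 4 stands highest at 0.52.

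With the crypt score as a covariate, 8 members rose and 5 fell, among them all 6 that rose and the 1 that fell without it, and Farsb and Yars2 joined those that rose. Without control replicates 1 and 4, 13 rose and none fell, and without Rb KO replicates 4 and 5, Aars, Gars, Hars and Yars rose and 3 members fell. Leaving out control replicate 4 alone gave 11 members called. Leaving out Rb KO replicate 4 alone took the call from Vars (adjusted p = 0.0504). Proliferation markers (6 of 6 rose) averaged 8.30 in control and 11.38 in Rb KO villi, the groups fully apart. The exact permutation p was 0.00794, the smallest that 5 against 5 arrays allow (adjusted p = 0.0524 over 66 such tests). Of 10 T cell markers 8 fell, from a mean of 10.25 (9.95 to 10.56) among controls to 9.70 (9.40 to 10.03). The 3′ minus 5′ difference of the GAPDH control probe sets, a reading of RNA quality, was -0.139 in controls and -0.0514 in Rb KO villi (exact permutation p = 0.00794, adjusted p = 0.0524 over 66 such tests), and with it as a covariate 8 members rose and none fell, with Tars no longer called. Shares over all genes were not taken for the fits with a covariate or with arrays left out, so their counts have no background. The part of proliferation and of T cells in the result was not tested.

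In DKO against Rb KO villi few synthetases were called. By limma none rose (1 at an unadjusted p under 0.05), beside 5.90% of all genes tested. Aars2 alone fell (5 at an unadjusted p under 0.05), beside 1.92%. Of the 35 members measured, 29 had negative and 6 positive differences. Some were imprecise, such as Ears2 at -0.49 ± 0.21 and Yars2 at -0.38 ± 0.27, so a member not called may still differ. Aars2, the mitochondrial alanyl-tRNA synthetase, read 7.90, 8.16, 7.98, 7.87 and 8.01 in Rb KO and 7.62, 7.65, 7.65, 7.84 and 7.65 in DKO villi. Every DKO array was below every Rb KO array, as in 2.96% of genes, and the difference was -0.30 ± 0.07 (adjusted p = 0.0218). The call was lost without DKO replicate 2 (adjusted p = 0.0501) or DKO replicate 3 (adjusted p = 0.056). The median difference was -0.10 over all members, -0.10 over the cytosolic and -0.07 over the mitochondrial members, and -0.01 over all genes tested. Nars, the asparaginyl-tRNA synthetase, had the largest difference, -0.66 ± 0.20, just short of the threshold (adjusted p = 0.0503). With the crypt score as a covariate 8 members fell, Aars2, Ears2, Farsb, Hars, Nars, Tars, Vars and Yars2. The share of all genes that fell in that fit was not taken. Of the T cell markers 6 of 10 rose, from a mean of 9.70 (9.40 to 10.03) to 10.29 (10.18 to 10.50), and of 9 exocrine pancreas markers 2 rose, from 7.17 (6.96 to 7.53) to 8.07 (6.95 to 9.17). Proliferation markers averaged 11.38 (11.16 to 11.61) over the Rb KO arrays and 10.65 (9.98 to 11.16) over the DKO arrays. The exact permutation p was 0.00794 (adjusted p = 0.0524 over 66 such tests), and none of the 6 passed the threshold alone. Their part in the result was not tested.

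Against controls 3 members rose in DKO villi, all cytosolic, or 8.8% of the 34 tested. Gars rose by 0.48 ± 0.11 (adjusted p = 0.00611), Yars by 0.49 ± 0.12 (adjusted p = 0.00873) and Aars by 0.42 ± 0.10 (adjusted p = 0.0108), beside 11.3% of all genes tested. DKO arrays read 10.21, 10.34, 10.36, 10.48 and 10.60 for Gars, 8.69, 8.77, 8.79, 8.71 and 8.98 for Yars, and 9.71, 10.07, 10.04, 9.85 and 9.87 for Aars. Yars and Aars were apart from the controls, as 8.99% of genes were, and Gars met the highest control value. Hars, Tars and Vars, which rose in Rb KO villi, lay at 0.17 ± 0.10, 0.13 ± 0.12 and 0.27 ± 0.20 above controls in DKO villi and did not pass. Their differences between DKO and Rb KO were -0.25, -0.31 and -0.41 and did not pass either (adjusted p from 0.133 to 0.229). Aars2 fell by 0.23 ± 0.07 (adjusted p = 0.0424) and Qars by 0.22 ± 0.07 (adjusted p = 0.0468) in DKO against control villi. These are 5.9% of the members tested, near the 5.78% of all genes that fell. Aars2 lost its call in 10 and Qars in 11 of the 15 fits that leave out 1 array (adjusted p of up to 0.102 without control replicate 1 and 0.0932 without DKO replicate 2). Both also lost it with the GAPDH reading as a covariate, or with an index of circadian clock genes. That index was -0.727 in control and 0.939 in DKO villi (exact permutation p = 0.00794, adjusted p = 0.0524 over 66 such tests). Proliferation markers rose (6 of 6), from a mean of 8.30 (7.51 to 9.17) to 10.65 (9.98 to 11.16), and goblet cell markers averaged 12.82 and 13.04 (exact permutation p = 0.0317, adjusted p = 0.14 over 66 such tests), with 0 of 7 past the threshold. Their part in the result was not tested. This comparison shares its arrays with the other villus comparisons, so its values are not independent of theirs.

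In Rb KO against control crypts 1 synthetase passed, or 2.9% of the 34 tested, near the share of all genes that fell. Lars2, the mitochondrial leucyl-tRNA synthetase, read 9.89, 9.95, 10.01, 9.94 and 10.04 in control and 9.81, 9.85, 9.68, 9.83 and 9.78 in Rb KO crypts. All Rb KO arrays were lower, as in 2.68% of genes, and the difference was -0.18 ± 0.05 (adjusted p = 0.0289), beside 2.97% of genes that fell. The call was lost without control replicate 3 or 5 or Rb KO replicate 3 or 5, with an adjusted p of up to 0.0864, and also with the mean of all probe sets, where Iars2 fell and Aars rose. No member rose by limma, beside 7.33% of all genes tested. At an unadjusted p under 0.05, 5 members rose and 5 fell. Aars and Hars had groups apart upward, as 6.76% of genes did, with differences of 0.25 ± 0.08 (adjusted p = 0.0617) and 0.11 ± 0.05 (adjusted p = 0.152). The median over the 35 members was -0.02, and that over the cytosolic members outside the complex 0.13. Proliferation markers rose (6 of 6), from a mean of 11.72 (11.50 to 11.80) to 12.36 (12.32 to 12.48), the groups fully apart. The exact permutation p was 0.00794 (adjusted p = 0.0524 over 66 such tests), and the markers' part in the result was not tested.

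The effect of Rb loss was then compared between villi and crypts. Gars differed by 0.39 ± 0.13 between the tissues (adjusted p = 0.0375 for the interaction), with 0.51 in villi and 0.12 in crypts, and 13.7% of all genes tested passed this test in either direction. The 2 tissues that share a genotype and a replicate number were taken as 1 animal, since they deviated together. With the animal as a block 4 members passed, Gars (adjusted p = 0.011), Hars (adjusted p = 0.0274), Lars (adjusted p = 0.0368) and Farsb (adjusted p = 0.0423), beside 20.5% of all genes. Each of the 4 had the more positive difference in villi, and Lars differed by 0.21 there and by -0.18 in crypts. The interaction of Gars was lost in 8 of the 15 fits that leave out 1 animal, with an adjusted p of up to 0.108 without control replicate 5. For Myc loss on top of Rb loss no member passed by limma (4 at an unadjusted p under 0.05), beside 3.40% of all genes, and with the block Hars2 did (0.31 ± 0.09, adjusted p = 0.0264), beside 9.93% of all genes.

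Deleting Myc in Rb-null crypts went with lower synthetase levels in both compartments. Of the 34 members tested 10 fell, or 29.4%, and none rose by limma (1 at an unadjusted p under 0.05), where 7.22% of all genes tested fell and 5.17% rose. The genes that fell were the mitochondrial Ears2, Yars2, Pars2, Tars2, Fars2 and Nars2, the complex members Iars, Kars and Qars, and the other cytosolic enzyme Hars. The falls were of 0.17 to 0.40 on the log2 scale. In 8 of the 34 members tested, all among these 10, every DKO array was below every Rb KO array, beside 6.78% of all genes tested. The median difference was -0.15 over all members, -0.15 over the cytosolic and -0.16 over the mitochondrial ones, and 0.01 over all genes tested.

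Myc with its partner Max binds the E-box letters CACGTG, and windows from members that hold them are shown because this comparison removes Myc. Of the 26 members with a promoter sequence 5 hold the E-box, against 7.15% of all promoters (Aars, Ears2, Farsb, Iars and Tars). Of the 10 members that fell 8 have a promoter sequence, and Ears2 and Iars are the 2 that hold it.
Ears2, chr7:122067047-122067076, minus strand, position 22: gcgaaggagccCACGTGtgtgtttctagtc
Iars, chr13:49682039-49682088, plus strand, position -69: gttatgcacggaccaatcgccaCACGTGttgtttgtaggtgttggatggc
Aars, chr8:111033674-111033723, plus strand, position -146: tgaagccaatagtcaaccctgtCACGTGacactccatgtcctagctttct
Aars, Iars and Tars each hold both motifs, and differed by 0.23, -0.36 and -0.16 in the same comparison. Farsb, which holds the E-box without the ATF4 letters, differed by -0.04.

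Ears2, the mitochondrial glutamyl-tRNA synthetase, had the smallest p of the members. Its Rb KO crypt arrays read 9.06, 8.94, 8.96, 9.06 and 8.96, close to the controls at 8.96 to 9.08, and its DKO arrays read 8.63, 8.70, 8.59, 8.45 and 8.61. The groups were fully apart, and the difference was -0.40 ± 0.05 (adjusted p = 1.2e-04). Its 3 dimmer probe sets gave -0.23 ± 0.07, -0.13 ± 0.10 and 0.08 ± 0.13, none past the threshold alone, so that 1 of the 4 had the other sign. With the mean of all probe sets per gene Ears2 was not called in this comparison.

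Iars read 10.36, 10.44, 10.40, 10.64 and 10.40 in Rb KO crypts and 9.93, 10.14, 10.23, 10.08 and 10.06 in DKO crypts. Every DKO array was lower, and the difference was -0.36 ± 0.07 (adjusted p = 0.00292). Yars2 read 9.54, 9.40, 9.40, 9.80 and 9.60 against 9.08, 9.20, 9.24, 9.27 and 9.14, also apart, with -0.36 ± 0.07 (adjusted p = 0.00413). Kars, which charges lysine tRNA for both compartments, read 11.38, 11.35, 11.36, 11.40 and 11.23 against 11.05, 11.09, 11.19, 11.13 and 11.21. Its lowest Rb KO array was just above its highest DKO array, and it fell by 0.21 ± 0.05 (adjusted p = 0.0144).

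Smaller falls were seen in the other 6. Pars2 (proline) fell by 0.21 ± 0.05, Tars2 (threonine) by 0.19 ± 0.05 and Fars2 (phenylalanine) by 0.19 ± 0.05, each with groups apart (adjusted p = 0.0157, 0.0173 and 0.0194). Hars fell by 0.17 ± 0.05 (adjusted p = 0.0327), with Rb KO arrays between 10.87 and 11.07, DKO arrays between 10.74 and 10.78, and controls between 10.72 and 10.87. Nars2 (asparagine) fell by 0.27 ± 0.07 (adjusted p = 0.0221) and Qars by 0.22 ± 0.06 (adjusted p = 0.0311), with groups that overlapped. Single arrays decided some of these calls. Qars was lost in 8 and Hars in 7 of the 15 fits that leave out 1 array, Nars2 without Rb KO replicate 4 or DKO replicate 1 or 5, and Fars2 without Rb KO replicate 2 or 4 (adjusted p from 0.0509 to 0.0858). With every probe set tested alone, Hars, Qars, Tars2 and Yars2 did not pass in each of theirs, though the signs matched.

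Aars went the other way in DKO crypts, without passing against Rb KO. It read 10.57, 10.34, 10.55, 10.50 and 10.58 in control, 10.73, 10.64, 10.71, 11.00 and 10.69 in Rb KO and 10.74, 11.02, 11.11, 11.07 and 10.99 in DKO crypts. Both mutant groups were above all controls. The difference of DKO from Rb KO was 0.23 ± 0.08 (adjusted p = 0.0677), and that of DKO from control was 0.48 ± 0.08 (adjusted p = 4.9e-04). Gars, which rose with it in villi, was at 11.65 ± 0.09 (n = 5) in DKO, 11.83 ± 0.11 (n = 5) in Rb KO and 11.71 ± 0.09 (n = 5) in control crypts, and neither difference passed.

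**Figure D3:**
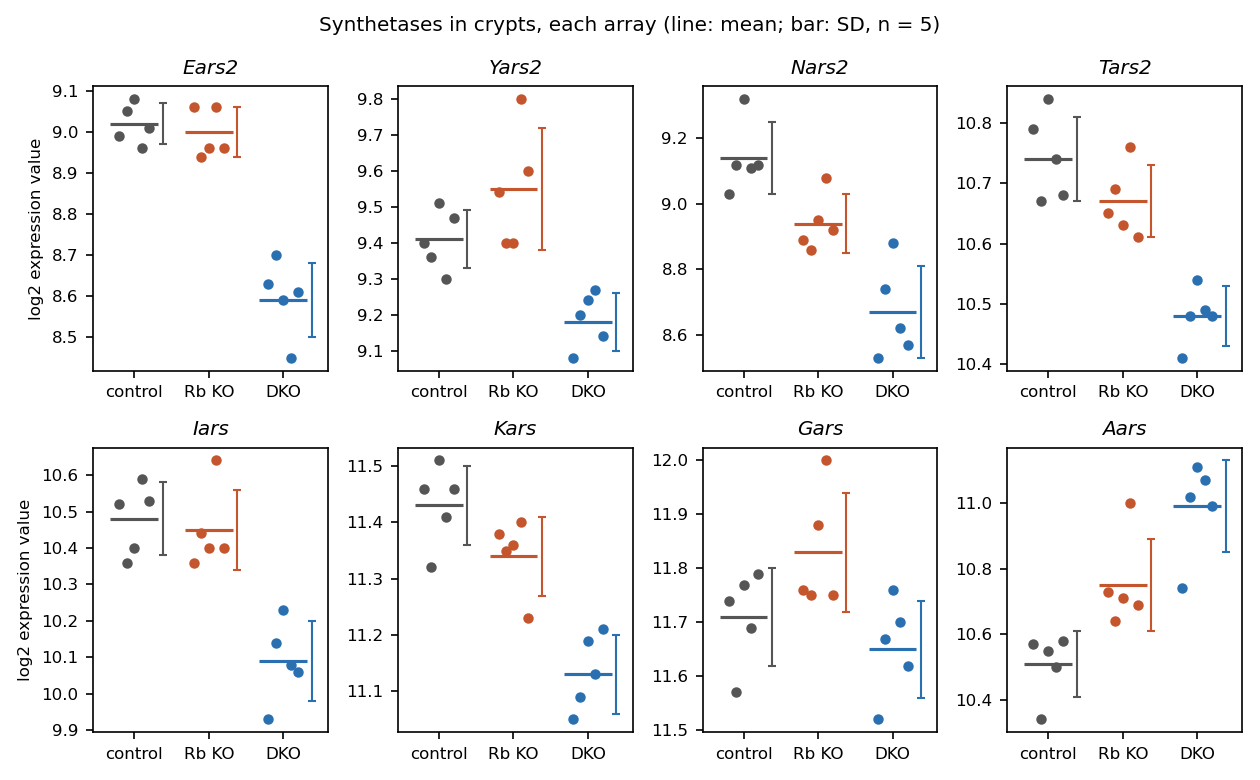
Log2 expression value of 8 synthetases in each of the 15 crypt arrays, by genotype (points: arrays; line: mean; bar: SD, n = 5). Ears2, Yars2, Tars2, Iars and Kars were lower in every DKO array than in every Rb KO array, Nars2 overlapped, Gars showed no difference past the threshold, and all mutant arrays of Aars lay above the controls.

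Cell markers were read for this comparison too. The crypt marker score was -0.17 in Rb KO and 0.128 in DKO crypts (exact permutation p = 0.0159, adjusted p = 0.0806 over 66 such tests), and 3 of the 9 crypt markers rose. Exocrine pancreas markers averaged 8.35 (7.82 to 9.92) over the Rb KO crypts and 9.57 (7.50 to 11.91) over the DKO crypts (exact permutation p = 0.254), with 1 of 9 past the threshold. T cell markers averaged 7.37 (7.06 to 7.81) and 7.70 (7.46 to 7.86) (exact permutation p = 0.0873), with 2 of 10 past it. Proliferation markers averaged 12.36 and 12.39, and the GAPDH reading differed by 0.0265 (exact permutation p = 0.254). With the crypt score as a covariate 8 members fell, 6 of them among the 10. With the GAPDH reading as a covariate 8 fell, 7 of them among the 10. Without Rb KO replicates 4 and 5, 6 fell, 5 of them among the 10 (Ears2, Iars, Kars, Qars and Yars2), and Aars rose. Shares over all genes were not taken for these fits. The part of pancreas and T cell RNA in the result was not tested.

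DKO against control crypts gave the most calls of the 6 comparisons. Of the 34 tested 15 fell, or 44.1%, and Aars rose, where 9.19% of all genes fell and 11.0% rose. Among the 15 tested mitochondrial members 10 fell, Ears2, Nars2, Tars2, Fars2, Lars2, Iars2, Yars2, Aars2, Wars2 and Hars2. In the complex 5 of 7 fell, Kars, Iars, Qars, Eprs and Lars, while none of the 12 other cytosolic members did by limma (0 at an unadjusted p under 0.05). No test was made of that split. Median differences were -0.23 over mitochondrial, -0.26 over complex and -0.04 over the other cytosolic members, and 0.01 over all genes tested. The arrays are those of the other crypt comparisons, so this count is not independent of theirs. T cell markers averaged 7.24 (7.07 to 7.44) in control and 7.70 in DKO crypts with 3 of 10 past the threshold, proliferation markers 11.72 and 12.39 with 6 of 6, and their part in the result was not tested.

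The largest fall was in Nars2, by 0.47 ± 0.07 (adjusted p = 2.3e-04), from 9.03, 9.12, 9.32, 9.11 and 9.12 in controls to 8.53, 8.74, 8.88, 8.62 and 8.57 in DKO crypts. Its groups were apart, and the Rb KO arrays, at 8.86 to 9.08, overlapped both. Ears2 fell by 0.42 ± 0.05 (adjusted p = 2.8e-05), Iars by 0.39 ± 0.07 (adjusted p = 6.9e-04), Qars by 0.34 ± 0.06 (adjusted p = 0.00107) and Kars by 0.30 ± 0.05 (adjusted p = 6.2e-04), all with groups apart. Mars1 and Rars, the complex members that did not fall, differed by 0.12 ± 0.08 and -0.01 ± 0.06. The mitochondrial Cars2, at 0.08, and Sars2, Rars2, Vars2 and Pars2, at -0.10 to -0.15, did not pass. In 11 of the 34 members tested, all among the 15, every DKO array was below every control, beside 5.97% of all genes tested. Aars stood apart above, as 7.54% did. The count was 9 without DKO replicate 1, 10 without control replicate 4 and 10 without control replicates 1 and 4. Aars, Ears2, Fars2, Iars, Kars, Lars2, Nars2, Qars and Tars2 were called in all alternative fits with 1 value per gene. With every probe set tested alone, Ears2, Hars2, Iars2, Lars2, Qars and Wars2 did not pass in each of theirs, though the signs matched.

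**Figure D4:**
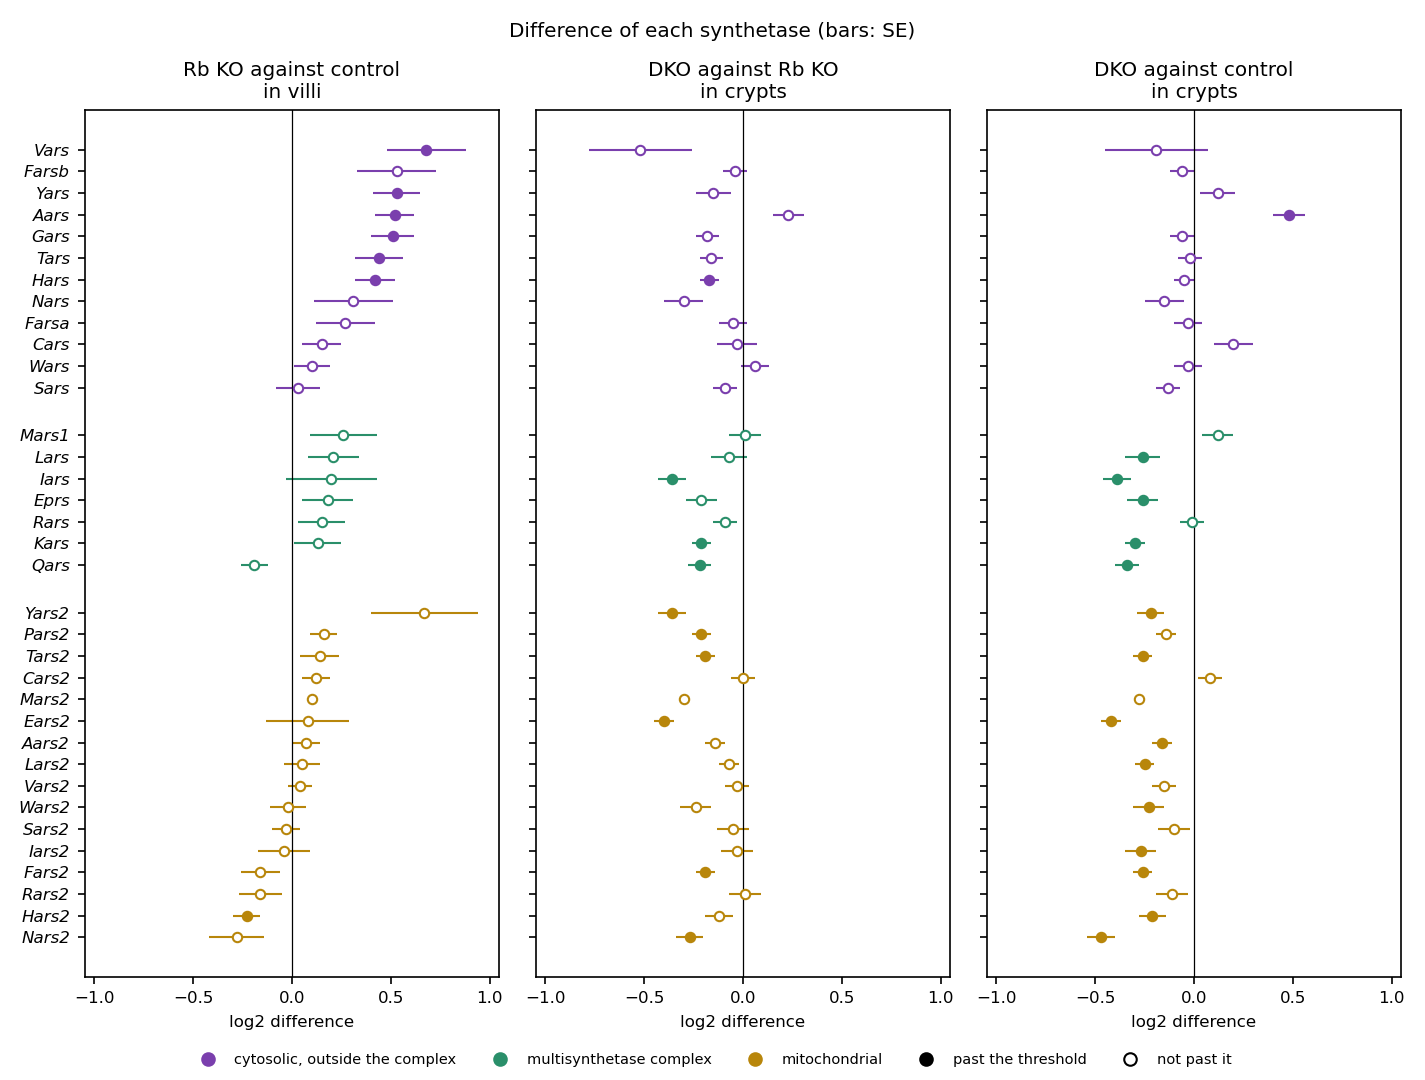
Log2 difference of each of the 35 synthetases (points; bars: SE) in Rb KO against control villi, DKO against Rb KO crypts and DKO against control crypts, grouped as cytosolic outside the complex, complex and mitochondrial. Filled points passed the threshold, and Mars2, drawn without a bar, was not tested. Points that passed lie right of 0 among cytosolic members outside the complex in villi, with Hars2 left of 0. In crypts they lie left of 0, in complex and mitochondrial members and Hars, with Aars right of 0 against controls.

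Partners of the synthetases were taken from lists of the tRNA pathway. In Rb KO villi, of the 3 scaffold genes of the multisynthetase complex, Aimp2 rose by 0.67 ± 0.13 (adjusted p = 0.00129), while Aimp1 and Eef1e1 differed by 0.07 ± 0.14 and 0.29 ± 0.19. Of 4 genes that make glutaminyl- or formylmethionyl-tRNA in mitochondria, Qrsl1, an amidotransferase subunit, rose by 0.39 ± 0.13 (adjusted p = 0.0273). Of 5 proofreading and synthetase-like genes 1 rose and 2 fell. Aarsd1, which clears the tRNA of alanine when it is mischarged, rose by 0.80 ± 0.12 (adjusted p = 1.0e-04), from 7.60 ± 0.17 (n = 5) to 8.40 ± 0.17 (n = 5). Dtd2 and Prorsd1 fell by 0.33 ± 0.07 and 0.31 ± 0.11. Of 6 genes of selenocysteine tRNA charging only Trnau1ap passed, with a rise of 0.57 ± 0.10 (adjusted p = 3.2e-04).

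Genes that make and finish tRNA moved in both directions in Rb KO villi. Of 20 genes of RNA polymerase III and its factors 2 rose and 7 fell, among them Gtf3c5, a TFIIIC subunit, up by 0.46 ± 0.06, Maf1, the repressor of the polymerase, down by 0.56 ± 0.08, and Gtf3c3 down by 0.52 ± 0.11. Of 19 tRNA processing and export genes 6 rose and 2 fell. The tRNA splicing endonuclease subunits Tsen15 and Tsen34 rose by 1.43 ± 0.19 and 0.81 ± 0.06, and Ssb, the La protein, by 0.63 ± 0.09. Of 29 tRNA modification genes 5 rose and 2 fell, Trmt2a by 0.87 ± 0.09 upward and Trdmt1 by 1.00 ± 0.16 downward. Of 31 amino acid response genes other than synthetases 9 rose and 2 fell. Mthfd2 rose by 1.59 ± 0.16, Atf4 itself by 0.42 ± 0.08 (adjusted p = 0.00117), and Aldh18a1, of proline synthesis, fell by 0.57 ± 0.13. The list's median difference was 0.08, and its share that rose, like those of the other lists, is to be read beside the 14.7% of all genes that rose, and its falls beside the 15.8% that fell.

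In DKO against Rb KO crypts the lists of tRNA making, processing and modification held falls and no rises. The scaffolds Eef1e1 and Aimp2 fell by 0.29 ± 0.05 and 0.17 ± 0.05, and Gatb, a mitochondrial amidotransferase subunit, by 0.30 ± 0.05. Dtd1, a deacylase that removes D-amino acids from tRNA, fell by 1.04 ± 0.07 (adjusted p = 1.6e-06), from 9.20 to 8.15. Of 29 tRNA modification genes 12 fell and none rose, with Pus7, a pseudouridine synthase, down by 0.97 ± 0.08, Pus3 by 0.51 ± 0.07 and Ctu1 by 0.41 ± 0.06. Of 19 processing and export genes 6 fell and none rose, among them Trnt1, which adds the CCA end, by 0.44 ± 0.06, the tRNA exportin Xpot by 0.36 ± 0.07 and Rpp40, of RNase P, by 0.40 ± 0.08. Of 20 polymerase III genes 5 fell and none rose, led by Polr3g at 0.49 ± 0.07 and Polr3e at 0.36 ± 0.05. The amino acid response list had 3 that rose and 2 that fell, with Slc1a4 up by 0.51 ± 0.12 and Slc7a5, an amino acid transporter, down by 0.49 ± 0.11. Of all genes tested 7.22% fell and 5.17% rose.

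Vars and Nars varied widely between replicates. Vars read 11.01, 9.97, 10.75, 10.75 and 9.94 in control crypts and 9.46, 10.12, 10.12, 10.83 and 10.94 in DKO crypts, and its Rb KO arrays stayed at 10.58 to 11.00. Control replicates 2 and 5 were the lowest controls, and DKO replicates 4 and 5 the highest DKO arrays, in villi and in crypts alike. The Vars difference of DKO from Rb KO crypts, -0.52 ± 0.26, was the largest of the members and did not pass (adjusted p = 0.209). Nars was highest in replicate 1 of the controls and of DKO in both tissues, at 12.23 and 11.67 in villi and 12.73 and 12.62 in crypts.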

How the data were processed

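The authors deposited log2 values, from 2.64 to 15.21, for 45101 probe sets and 30 arrays. How the authors normalized them is not given in the sources used here. Array medians were 6.28 to 6.34 in villi and 6.67 to 6.73 in crypts, so each tissue was fitted alone. In the platform annotation 34958 probe sets have 1 symbol, 932 several and 9211 none, and only the first were used. A gene was its probe set of highest mean, and the 14548 genes above the 30th percentile of probe set means (5.33) were tested.

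In R 4.3.3, limma 3.58.1 fitted the 3 genotypes together, with no covariate, two-sided tests and Benjamini-Hochberg adjustment, and an interaction term compared the tissues. The scripts were tested on simulated data. For marker scores the arrays were permuted exactly (two-sided). Villus and crypt arrays sharing genotype and label number deviated together in 15 of 15 cases (r from 0.246 to 0.560) and were taken as 1 animal. The members and lists were chosen with earlier results of these data known. All members may be named, with Rb1 and Myc, every gene of a list of 5 or fewer, and the 3 called genes of smallest p of longer lists. Alternatives changed the probe sets, filter, normalization, centring, arrays, limma settings, threshold and covariates; testing every probe set alone and the counts at unadjusted p were added after the data were seen. Promoters came from RefSeq (GRCm38.p6), and figures were drawn with matplotlib 3.10.9.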

Additional observations from a re-analysis of the deposited data

Results flagged for a closer look

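In 10 of the 210 groups of 5 arrays, 1 array stood apart from the other 4, where chance flags about 1 in 20 groups. Replicate 4 of the Rb KO crypts did so in 4 of the 10, as the highest of its group: Aars at 11.00, Hars at 11.07, Iars at 10.64 and Mars1 at 10.58. Lars stood apart in control crypts replicate 2 at 10.39 and in DKO crypts replicate 3 at 10.30, within a DKO group that spans only 10.25 to 10.30. Pars2 stood apart in DKO crypts replicate 3 at 8.55, and Cars2 in control crypts replicate 4 at 8.91, below the others. In villi, Ears2 stood apart in control replicate 4 at 8.39 and Aars2 in DKO replicate 4 at 7.84. The effect of Rb loss on Gars differed between the tissues by 0.39 by the interaction test, larger in villi.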

How the results depend on the processing

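No called result reversed its direction under the alternatives run. In Rb KO against control villi the 7 members called became 13 with the crypt score as covariate or without control animals 1 and 4, and 4 at an adjusted p of 0.01; the cytosolic median minus the mitochondrial median, 0.21, became 0.36 with the GAPDH reading as a covariate and 0.37 without control animals 1 and 4. In DKO against Rb KO villi the 1 became 2 at the 50th percentile filter, with quantile normalization, with 2 genotypes in the fit or without control animals 1 and 4, 8 with the crypt score and 0 at 0.01. In DKO against control villi the 5 became 9 with the crypt score, 3 with the clock index or GAPDH reading and 2 at 0.01. In Rb KO against control crypts the 1 (Lars2) became 2 with the mean of all probe sets (Aars and Iars2, without Lars2), quantile normalization or trend and robust fitting (both with Lars2), and 0 with median centring, 2 genotypes, without Rb KO animals 4 and 5, at 0.01 or with every probe set tested alone. In DKO against Rb KO crypts the 10 became 3 at 0.01 and 5 with every probe set alone. In DKO against control crypts the 16 became 10 without control animals 1 and 4, and 9 at 0.01 or with every probe set alone. The interaction count for Rb, 1, became 0 with median centring or at 0.01. Shares over all genes were not taken for these alternatives, so the counts cannot be read as particular to synthetases. The causes were not tested.

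Across genotypes the labels give the replicates only a shared number, and do not say whether it marks a batch. Deviations of same-numbered arrays from their group means correlated at r of -0.274 to 0.419 over the comparisons. With the number as a replicate block 3 members fell in DKO against Rb KO villi. In Rb KO against control crypts 0 were called, and in DKO against control crypts 1 rose and 11 fell. In Rb KO against control villi 8 rose and 1 fell. In the tissue comparisons the block is the animal, with 4 members for Rb and 1 for Myc. Leaving out 1 replicate at a time gave 6 to 11 members for Rb KO villi, 0 to 2 for DKO against Rb KO villi, 3 to 4 for DKO against control villi, 0 to 2 for Rb KO crypts, 7 to 12 for DKO against Rb KO crypts and 9 to 16 for DKO against control crypts, and 0 to 5 and 0 to 1 for the Rb and Myc interactions.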

Other observations

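Over the 30 arrays, as deviations from the tissue mean, the genes outside the list most like the mean of the cytosolic synthetases were Eif2b1, a subunit of the initiation factor eIF2B, at r = 0.96, Lyar and Mrps18b at 0.95, and Mettl16 and Gtf2h4 at 0.94. These are descriptions with no test, over points that share arrays and differ in crypt marker score.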
